A study of Mus musculus with 2 samples.

Results

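Feedback genes of the ERK pathway were compared between Schwann cells kept in 2 culture media. The 10 genes were taken by name from the 55323 rows of the expression table: the phosphatase genes Dusp4, Dusp5 and Dusp6, the Sprouty genes Spry1, Spry2 and Spry4, the Spred genes Spred1 and Spred2, and the ETS transcription factor genes Etv4 and Etv5. They were selected on the FPKM values of these same libraries, since earlier results for them were known when the group was named, so the values below describe them and support no test. The cells were TgS1, a mouse Schwann cell line with a human TTR V30M transgene, a form of transthyretin known from hereditary amyloid neuropathy. One group had been cultured long term in DMEM, a basal medium, and the other long term in SCM, a medium that the labels do not spell out. Both groups carried the transgene, and no line without it is analysed here. Each group was 1 library of total RNA, so the differences below lack a replicate check and carry no p-values. The study's title concerns transthyretin expression in the repair state of Schwann cells, and the labels do not say which medium stands for that state.

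ERK is the last kinase of a relay in which growth factor receptors activate RAS, RAS activates RAF, RAF activates MEK and MEK phosphorylates ERK. Active ERK induces genes whose products shut the relay down again: dual-specificity phosphatases that remove its activating phosphates, and Sprouty and Spred proteins that act upstream at the level of RAS and RAF. The PEA3 factors Etv4 and Etv5 are induced in the same setting and carry the signal on to further genes. In Schwann cells the pathway is known both for driving the loss of the differentiated state after nerve injury and for a role in myelination.

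Reads counted in the rows came to 29085791 in DMEM and 36666676 in SCM, recovered from the steps of the deposited FPKM values. FPKM are fragments scaled to gene length and, here, to that total of counted reads. Reads outside the rows cannot be recovered. For a gene of 1 kb with 0 reads the level could be as high as 0.103 FPKM (DMEM) or 0.0818 FPKM (SCM), the equivalent of 3 reads. Plain ratios of FPKM are given with 95% exact (Clopper-Pearson) intervals from these reads. Intervals and limits cover counting error only, and amplified copies of 1 molecule, which carry no identifier here, may be counted more than once. Log2 ratios are log2((SCM FPKM + 1) / (DMEM FPKM + 1)), which understates the ratio of low genes, and a gene counts as higher or lower at 2-fold or more on that scale. A gene was measured where the higher of its 2 values was at least 1 FPKM.

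Of the 10 genes, 9 were measured, 1 was higher in SCM (Dusp6) and 1 was lower (Etv4). Over all 12334 rows measured, 3.1% were higher and 2.8% lower by the same rule. Of the 9 genes, 6 had a counting interval above 1 and 2 an interval below 1, against 29.2% and 36.3% of all rows, and the interval of Dusp4 held 1. As plain ratios without the pseudocount, 3 of the 9 were at 2 or more and 1 at 0.5 or less, against 5.85% and 5.5% of all rows. The median log2 ratio of the 9 genes was 0.42, beside -0.03 over all rows. Log2 ratios lay above 0 in 6 of the 9 and below 0 in 3, against 45.8% and 54.2% of all rows. The genes did not go one way. Genes of the same family lay on opposite sides of 0 in the phosphatases and in the ETS factors, whereas the measured Sprouty and Spred genes all lay above 0.

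**Figure D1:**
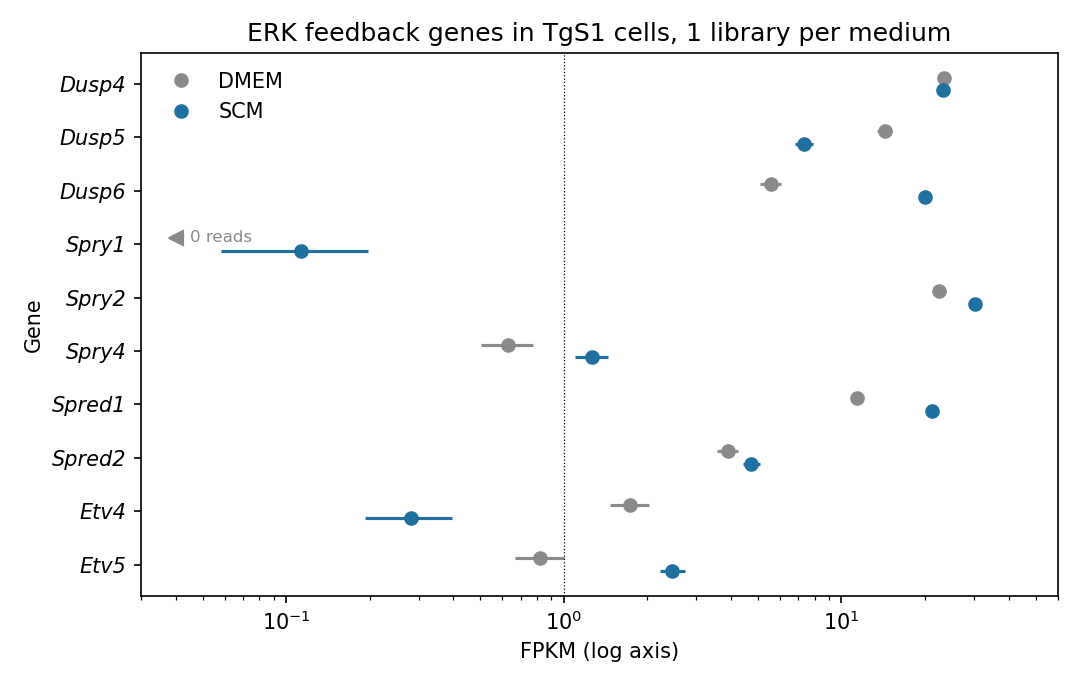
FPKM of each gene (log axis) in the DMEM library (grey) and the SCM library (blue), 1 library per medium. Lines are 95% Poisson intervals of the read count, the dotted line marks 1 FPKM, and the arrow marks a count of 0 reads for Spry1 in DMEM. The points of Dusp6 lie farthest apart among the genes above 5 FPKM in both media, and those of Dusp4 lie on top of each other.

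The 3 phosphatase genes went in different directions. Dusp6, also called MKP-3, is a cytoplasmic phosphatase that is specific for ERK. In DMEM it stood at 5.57 FPKM, from 507 reads, and in SCM at 20.05 FPKM, from 2302 reads, so it was 3.60-fold higher in SCM (3.27 to 3.97), with a log2 ratio of 1.68. This was the highest value of the 10 genes, and 73 of the 12334 rows had a higher one. Dusp5, a nuclear phosphatase that is also specific for ERK and is known to hold it in the nucleus, went the other way. In DMEM it stood at 14.3 FPKM, from 1030 reads, and in SCM at 7.34 FPKM, from 666 reads, a level 1.95-fold lower (1.77 to 2.15). Its log2 ratio of -0.88 fell short of 2-fold. Dusp4, or MKP-2, a nuclear phosphatase that acts on ERK and other MAP kinases, had 23.3 FPKM in each library (1858 reads in DMEM and 2341 in SCM). Its ratio was 0.999 (0.940 to 1.063).

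The summed level of the 3 phosphatase genes was 43.2 FPKM in DMEM and 50.7 in SCM. The share of Dusp6 in that sum was 12.9% (95% interval by the delta method 11.8 to 13.9) in DMEM and 39.5% (38.2 to 40.8) in SCM. The share of Dusp5 was 33.1% (31.5 to 34.8) in DMEM and 14.5% (13.5 to 15.5) in SCM. Dusp4 remained the most abundant of the 3 in both media, at 54.0% and 46.0%. In DMEM the order by FPKM was Dusp4, Dusp5, Dusp6, and in SCM it was Dusp4, Dusp6, Dusp5.

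Dusp6 lies on chromosome 10 at 99263231 to 99267489 on the plus strand, and Dusp5 on chromosome 19 at 53529109 to 53542431 on the plus strand (GRCm38, GENCODE M21). Dusp4 lies on chromosome 8 at 34807297 to 34819894 on the plus strand. Dusp5 shares exon positions with Gm50394, a long noncoding RNA on the other strand that had 12 reads in DMEM and 8 in SCM. No source used here gives the strand setting of the read counting, so reads of these rows cannot be told apart.

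The bases before the start of Dusp6 and Dusp5 are shown because these ERK-specific phosphatase genes lay at opposite ends of the family. Each sequence is the 250 bases that precede the RefSeq start, chr10:99262981-99263230 and chr19:53528895-53529144, both on the plus strand of GRCm38.p6. Runs of 4 capitals mark the core letters of ETS sites, GGAA or its reverse complement TTCC. The longer run of capitals in Dusp5 marks 2 adjoining CArG boxes, the motif read by serum response factor, a partner of ETS proteins at growth-factor-induced genes.
Dusp6: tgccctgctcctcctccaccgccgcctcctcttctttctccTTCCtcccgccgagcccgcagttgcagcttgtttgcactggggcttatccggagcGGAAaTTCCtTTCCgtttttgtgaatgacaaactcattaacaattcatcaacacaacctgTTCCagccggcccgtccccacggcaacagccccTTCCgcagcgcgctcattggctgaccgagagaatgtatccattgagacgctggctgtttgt
Dusp5: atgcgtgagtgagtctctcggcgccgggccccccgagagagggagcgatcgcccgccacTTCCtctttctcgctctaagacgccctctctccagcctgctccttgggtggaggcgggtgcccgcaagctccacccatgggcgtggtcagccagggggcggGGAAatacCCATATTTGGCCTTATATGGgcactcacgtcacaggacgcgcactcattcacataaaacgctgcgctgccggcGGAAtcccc

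The Dusp6 stretch held 6 ETS cores and 0 CArG boxes, and the Dusp5 stretch 3 ETS cores and 2 CArG boxes. The comparison set, called all windows below, was the 32851 RefSeq windows of 300 bases (250 before to 50 after a start) that were kept. It lacks the windows that the processing section lists as left out. Of this set, 96.0% held at least 1 ETS core, and the median was 3. A CArG box stood in 1.63% of these windows. Windows were matched for 7 of the 10 genes (not Dusp4, Spry4 or Etv4), with 2 windows for Etv5, and of these 8 windows that of Dusp5 alone held a CArG box. The ETS core and the CArG box were added to the search after the sequences had been seen. A match is a description of the letters and not evidence of binding.

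Longer motifs were searched as well. The ETS motif CCGGAA, searched on both strands, stood in 1 of the 8 windows, that of Spry2, and in 14.9% of all windows. TGAATGAA and TGAATGGA are forms of the motif read by Capicua, a repressor that ERK inactivates and that is known to hold down PEA3 genes. These forms stood in 0 of the 8 windows, both Etv5 windows included, and in 1.30% and 1.21% of all windows. The AP-1 motif TGACTCA (5.20% of all windows) and the cyclic AMP response element TGACGTCA (1.79%) also stood in 0 of the 8. A motif outside these windows would not be seen. The Spry2 match is shown with its neighbourhood because it was the 1 match to the longer ETS motif, which is in capitals and includes the 4-letter core. It starts at base 34 counted from the start as base 1, and the printed stretch is chr14:105896770-105896799 on the minus strand of GRCm38.p6.
Spry2: gaggtcatctatcCCGGAAtccgggagggt

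Spry2 was the abundant Sprouty gene in both media. Sprouty proteins are membrane-associated inhibitors that curb RAS and RAF activation downstream of receptor tyrosine kinases. Spry2 (chromosome 14, 105891947 to 105896819, minus strand) stood at 22.5 FPKM in the DMEM library (1366 reads) and at 30.4 FPKM in the SCM library (2324 reads). It was 1.35-fold higher in SCM (1.26 to 1.44), with a log2 ratio of 0.42. It made up 97.3% (96.7 to 97.9) of the summed Sprouty FPKM in DMEM and 95.7% (95.1 to 96.2) in SCM.

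The other two Sprouty genes were at low levels. Spry4 had 87 reads in DMEM (0.629 FPKM) and 220 in SCM (1.26 FPKM). It was 2.01-fold higher as a plain ratio (1.56 to 2.60), but its log2 ratio with the pseudocount was 0.47, where the pseudocount is as large as the values themselves. Spry1 had 0 reads in DMEM and 12 reads (0.113 FPKM) in SCM, and was not measured by the rule. Against the limit of 3 reads in DMEM it was at least 3.17-fold higher in SCM before the counting error of the 12 reads, and the exact interval of the ratio ran from 2.20 upward. Spry1 shares exon positions with Gm42922, a row on the other strand with 0 reads in DMEM and 6 in SCM, so some of those reads may belong to either row.

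Both Spred genes lay above 0. Spred proteins recruit neurofibromin, a RAS GTPase-activating protein, to the membrane and so switch RAS off. Spred1 (chromosome 2, 117121374 to 117182279, plus strand) had 2239 reads in DMEM (11.3 FPKM) and 5276 in SCM (21.2 FPKM). It was 1.87-fold higher in SCM (1.78 to 1.96), with a log2 ratio of 0.85, short of 2-fold. Spred2 (chromosome 11, 19924375 to 20024026, plus strand) had 523 reads in DMEM (3.89 FPKM) and 802 in SCM (4.74 FPKM), a ratio of 1.22 (1.09 to 1.36). Spred1 made up 74.5% (72.6 to 76.3) of the summed FPKM of both in DMEM and 81.7% (80.6 to 82.9) in SCM. Nf1, which encodes neurofibromin, had 17.1 FPKM in DMEM and 23.7 in SCM, a ratio of 1.38 (1.34 to 1.42).

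Etv4 was the more abundant of both ETS factor genes in DMEM and Etv5 in SCM. Etv4 and Etv5 belong, with Etv1, to the PEA3 group of ETS transcription factors. Etv4 (chromosome 11, 101769742 to 101785371, minus strand) had 156 reads in DMEM (1.73 FPKM) and 32 in SCM (0.281 FPKM). It was 6.15-fold lower in SCM (4.18 to 9.29), and its log2 ratio of -1.09 was the lowest of the 9 measured genes. The call of Etv4 as lower was lost with a pseudocount of 3 FPKM, where its log2 ratio was -0.53. Etv5 (chromosome 16, 22381309 to 22439719, minus strand) had 98 reads in DMEM (0.821 FPKM) and 370 in SCM (2.46 FPKM). It was 2.99-fold higher in SCM as a plain ratio (2.39 to 3.78), and its log2 ratio of 0.93 fell just short of the threshold. With a pseudocount of 0.1 FPKM Etv5 had a log2 ratio of 1.47 and counted as higher.

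The sum of Etv4 and Etv5 was 2.55 FPKM in DMEM and 2.74 in SCM. Etv4 made up 67.8% (62.3 to 73.3) of it in DMEM and 10.3% (6.93 to 13.6) in SCM. Etv1, the third PEA3 gene and not among the 10, had 788 reads in DMEM (2.04 FPKM) and 4112 in SCM (8.43 FPKM). It was 4.14-fold higher in SCM (3.83 to 4.47). With Etv1 included the PEA3 sum was 4.59 FPKM in DMEM and 11.2 in SCM, and Etv1 made up 44.4% and 75.5% of it. Etv1 was the most abundant of the 3 genes in both media, and in DMEM they lay between 0.821 and 2.04 FPKM.

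**Figure D2:**
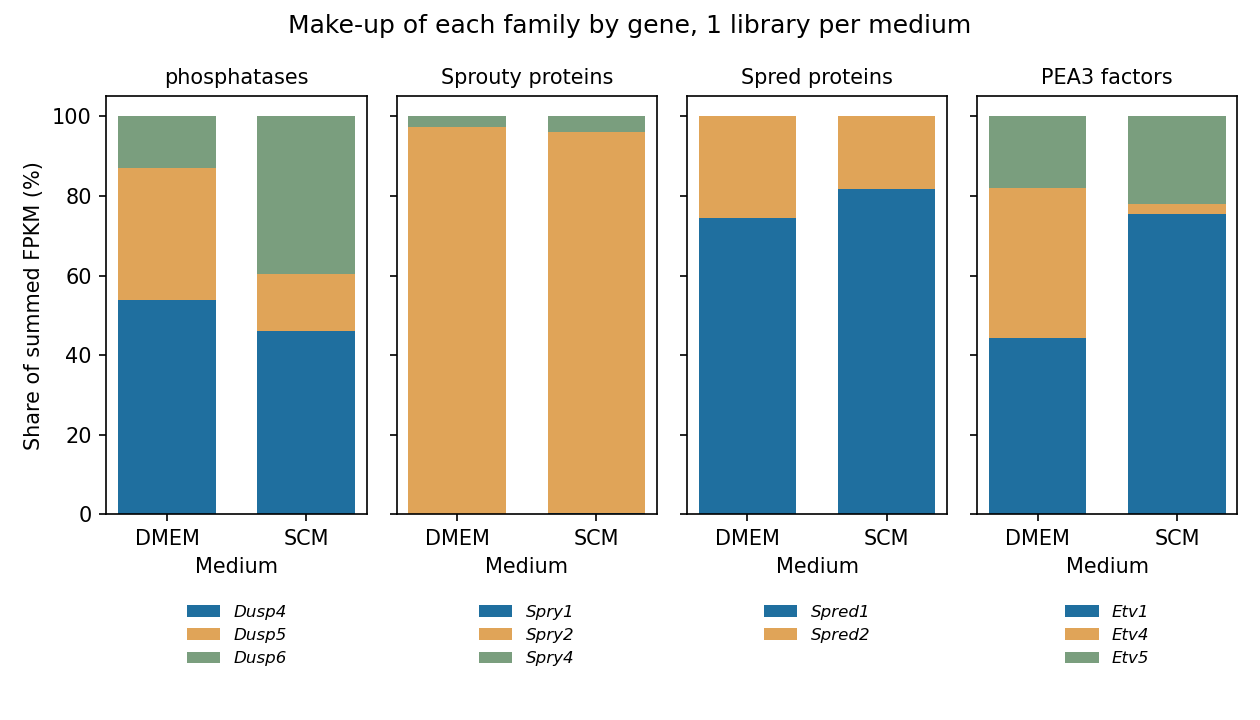
Share of each gene in the summed FPKM of its family (%), with a bar for the DMEM and a bar for the SCM library. Dusp6 goes from 12.9% to 39.5% of the phosphatase sum and Etv4 from 37.7% to 2.52% of the PEA3 sum, while Spry2 stays above 95% of the Sprouty sum.

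Set among all rows, the 9 genes spread from near the bottom to near the top. Etv4 lay at percentile 2.27 of the 12334 log2 ratios and Dusp5 at percentile 3.54. Dusp4 lay near the middle, at percentile 54.1. Spred2, Spry2 and Spry4 lay at percentiles 78.1, 87.6 and 89.5, Spred1 at 95.8, Etv5 at 96.4 and Dusp6 at 99.4. Among 6539 protein-coding rows whose higher value was at least 5 FPKM, the genes next to Dusp6 in the order of log2 ratios were Adam11 above it (1.69) and Mpzl1 below it (1.67). With 2 libraries that nearness is in 1 ratio.

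**Figure D3:**
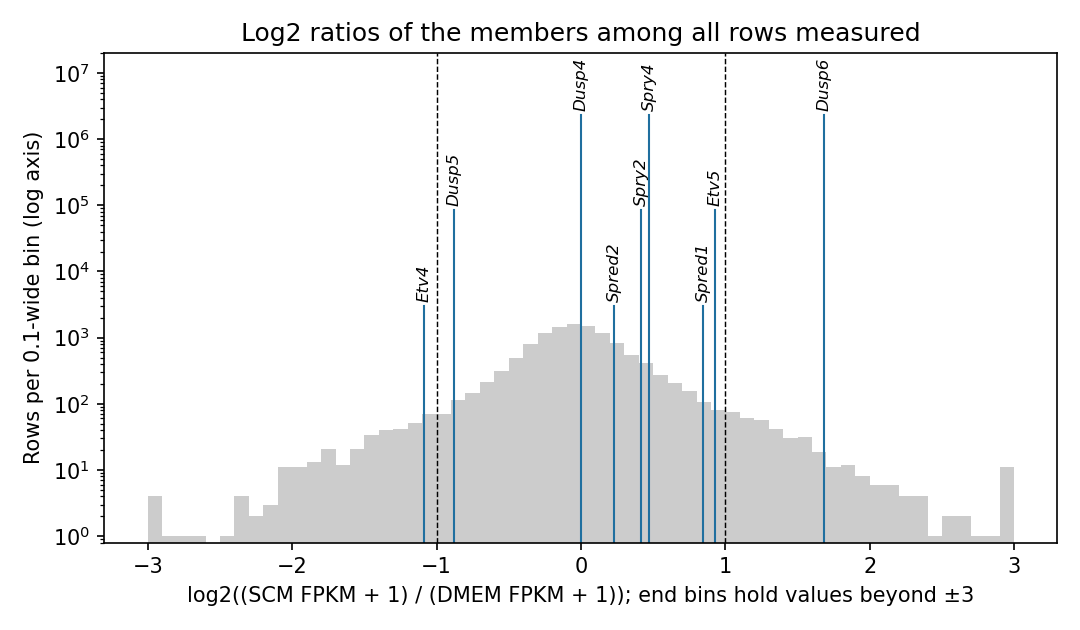
Number of measured rows per bin of log2((SCM FPKM + 1) / (DMEM FPKM + 1)), on a log axis, with the 9 measured feedback genes marked by blue lines whose height has no meaning. Dashed lines mark 2-fold, and Dusp6 (1.68) and Etv4 (-1.09) lie outside them.

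The other genes of the pathway were taken list by list, and their counts are read against the 3.1% of all rows that were higher and the 2.8% that were lower. Of 16 RAS, RAF, MEK and ERK genes, 15 were measured, 0 were higher or lower at 2-fold, and the log2 ratios ran from -0.41 to 0.39 with a median of 0.04. The MEK gene Map2k2 had 38.8 and 28.997 FPKM in DMEM and SCM, and the small GTPase gene Rras 21.3 and 28.2 FPKM. Mapk3, which encodes an ERK kinase, had 51.1 and 53.8 FPKM, a ratio of 1.05 (1.01 to 1.10). Of 18 adaptors, RAS exchange factors and RAS GTPase-activating proteins, 15 were measured, and their median was -0.05 with 0 past 2-fold. The docking protein gene Gab2 had 31.3 and 19.7 FPKM, and Rasa3, a RAS GTPase-activating protein gene, 35.0 and 49.8 FPKM. Of 13 receptor tyrosine kinase genes, 8 were measured, and their median was 0.31 with 0 past 2-fold. Receptor genes below the filter can still differ as plain ratios, as Fgfr2 did at 0.849 and 0.338 FPKM (ratio 0.398, 0.319 to 0.494) and Pdgfra at 0.171 and 0.0408 FPKM (ratio 0.238, 0.124 to 0.431). Both were named after their values were seen. Erbb3, the neuregulin receptor of Schwann cells, had 102 and 148 FPKM, and the insulin receptor gene Insr 10.9 and 15.8 FPKM.

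Among other negative regulators of MAP kinase signalling, 12 of 15 genes were measured (Spry3 was not analysed here), of which 0 were higher and 2 lower. Their median was -0.03. Both lower genes encode phosphatases known for acting on the stress kinases JNK and p38 rather than on ERK. Dusp10 stood at 59.4 FPKM in DMEM and at 26.9 in SCM, a level 2.21-fold lower (2.11 to 2.31). Dusp8 had 3.11 and 1.002 FPKM, a level 3.099-fold lower (2.60 to 3.71). Of the other phosphatase genes of that list, Dusp1 had 1.70 and 0.560 FPKM, Dusp7 5.33 and 8.22 FPKM and Dusp16 8.69 and 6.33 FPKM. Dusp2 had 0 reads in DMEM and 12 in SCM, and Dusp9 had 0 reads in both. These 5 genes fell outside the rule for named genes and were added after their values were seen.

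All 12 genes of other ETS factors and of repressors at ETS or Capicua sites were measured. Etv1 was higher, 0 were lower, and their median was 0.04. Erf, an ETS repressor that ERK exports from the nucleus, stood at 36.4 and 24.8 FPKM. Cic, the gene of Capicua itself, had 22.1 and 20.1 FPKM. Of 22 other genes known to be induced by ERK, 19 were measured, of which 1 was higher and 2 were lower. At a fold threshold of 1.5 the counts were 5 and 3, and without the pseudocount 2 and 2. Their median was -0.17. The higher gene was the nuclear receptor gene Nr4a1, at 1.25 and 3.98 FPKM. The lower genes were the AP-1 genes Fosl2, at 32.0 and 9.82 FPKM, and Fosl1, at 4.24 and 1.14 FPKM. Fosl1 and Fosl2 lay on the side of Etv4 and Dusp5, and Nr4a1 on the side of Dusp6. In all, the 6 lists held 97 genes, counting Spry3, which was not analysed, and 81 were measured. Of these, 2 (2.47%) were higher and 4 (4.94%) lower, beside the 3.1% and 2.8% of all rows.

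**Figure D4:**
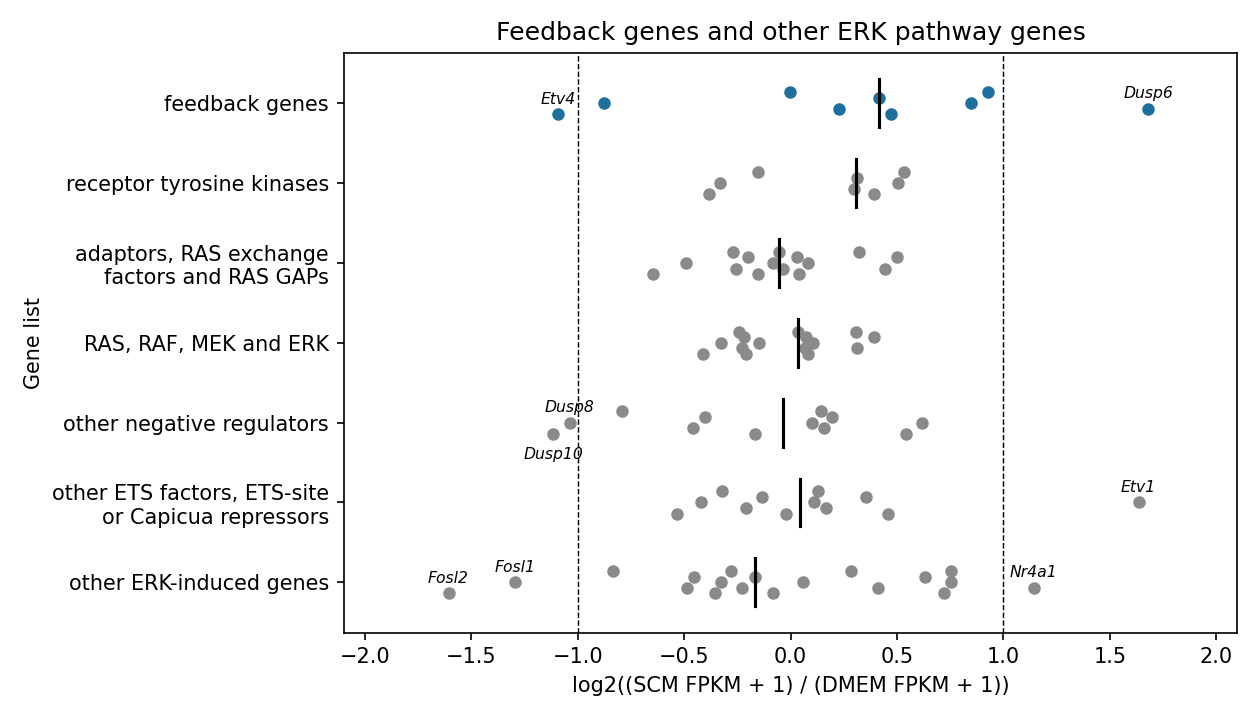
Log2 ratio of each measured gene (points), by gene list, with the list's median as a vertical bar and 2-fold as dashed lines. The 15 RAS, RAF, MEK and ERK genes lie between -0.41 and 0.39, and the 9 feedback genes (blue) between -1.09 and 1.68.

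The label of the cells was checked against markers. All 6 Schwann cell markers were measured, at a summed 3246 FPKM in DMEM and 3057 in SCM, with Sox10 at 126 and 113 FPKM. Markers of other cell types were low: the summed levels in DMEM and SCM were 0.913 and 3.25 FPKM for 6 fibroblast markers, 1.42 and 1.51 for 5 macrophage markers, 1.01 and 4.32 for 3 perineurial markers, 0.0552 and 0.0277 for 4 endothelial markers and 0.315 and 0.257 for 4 neuronal markers. The fibroblast markers Col1a1 and Lum, the endothelial markers Cdh5 and Kdr, the neuronal markers Rbfox3 and Syt1, the macrophage marker Adgre1 and the perineurial marker Cldn1 had 0 reads in both libraries. The fibroblast sum came mainly from Col1a2 and the perineurial sum from Itgb4, both higher in SCM, and their part in the values of the feedback genes was not tested. In bulk RNA, fewer cells with a transcript and less of it per cell cannot be told apart.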

How the data were processed

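Total RNA of TgS1 cells was sequenced as 1 stranded library per medium, per the labels' protocols. The authors deposited FPKM values for 55323 rows. Per the submitters' processing notes, the tools included STAR 2.7.9a, featureCounts 2.0.1, cutadapt 3.1, Trimmomatic 0.39 and Trim Galore, with the builds GRCm38.p6 and mm10, and their roles, order and strand setting are not given there. Columns were matched to groups by the medium in their names, and there were 0 other sample columns.

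FPKM multiplied by gene length gave whole reads (100% of rows within 0.01 of a whole read). No count model was fitted, since a medium had 1 library. Ratios, exact intervals and log2 ratios (pseudocount of 1 FPKM) were computed in Python 3.11.15 with SciPy 1.17.1, and the steps were tested on simulated reads. Shares within a family have 95% delta-method intervals from the reads.

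The 10 genes, the 6 pathway lists and the markers were chosen with earlier results of these data known. Text names all 10, every list gene past 2-fold and the 2 with the largest absolute log2 ratio per list. Mapk3, Nf1, Cic, Egr3, Ier3, Ccnd1, Hbegf and Fos were named after their values were seen. Gene positions are from GENCODE M21 by gene identifier, since 1457 of 52046 matched identifiers had the same position in the table. A further 50022 had a span of the same length at another position. Most positions in the table thus do not match the builds named in the processing notes, and the build behind them was not determined. Promoter windows are from RefSeq (GRCm38.p6), with those on chromosome 18 left out. Alternatives changed the pseudocount, filter, scaling, fold threshold and rows used.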

Additional observations from a re-analysis of the deposited data

How the results depend on the processing

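Of the 9 measured genes, 1 was higher in SCM and 1 lower, and these counts rested on the scale. The number higher was 2 with a pseudocount of 0.1 FPKM (Etv5 added), 3 with no pseudocount (Etv5 and Spry4 added, an alternative chosen after seeing the data) and 3 with a fold threshold of 1.5 (Etv5 and Spred1 added). The number lower was 0 with a pseudocount of 3 FPKM, 0 with a filter of 5 FPKM, which leaves 5 of the genes and removes Etv4, and 2 with a fold threshold of 1.5 (Dusp5 added). Over all rows 7.9% were higher and 7.52% lower at 1.5-fold, and with no pseudocount 5.85% and 5.5%. The median log2 ratio of the genes was 0.23 with a pseudocount of 3 FPKM. Under scaling by the median ratio, with no filter and among protein-coding rows, both counts stayed at 1. Dusp6 was higher under all 8 alternatives. A filter or a fold threshold cannot change the log2 ratio of a single gene. Of 45 values of single genes under the other alternatives, 34 stayed within a set distance of their main value and 11 did not. That distance ran from the middle to an end of the gene's counting interval, on the log2 scale. Of the called genes, 0 changed sign. Of 96 counts of the pathway lists, 85 stayed within 1.5 times and 11 did not. Most of the 85 were counts of 0 that stayed at 0, and these say little about stability. No paired analysis was possible because there was 1 library per medium. Depth limits the values of Spry1 (0 reads in DMEM and 12 in SCM), of Etv4 in SCM (32 reads) and of Spry4 and Etv5 in DMEM (87 and 98 reads).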
